A study of Mus musculus with 12 samples.

Results

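The 38 genes described here encode cathepsins and other proteins of the lysosome. They were taken by symbol from a list of lysosomal proteases, hydrolases, membrane proteins and proton pump parts. This list, like those of further genes and markers below, was chosen with earlier results of these data known. All 38 were found among the 15089 genes of the deposited table, and all 38 passed the filter on low counts. RNA was sequenced from astrocytes pulled out of the cortex of mice on postnatal day 16 with magnetic beads against ACSA-2, an epitope of the astrocyte surface protein ATP1B2. There were 12 libraries, 4 of each of 3 genotypes, with 1 mouse per library. Total counts ran from 16506627 to 22159404 per library.

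The mutant genotype cKOA carried Nmnat2 f/f, NexCre+/- and Sarm1+/-, and thus kept 1 working Sarm1 allele. The second mutant genotype, cKOB, carried Nmnat2 f/f, NexCre+/- and Sarm1-/-. The control genotype Ctrl-2 carried Nmnat2 f/+, NexCre+/- and Sarm1+/-, so that it shares with both mutants the Cre allele and at least 1 null allele of Sarm1. In the study's own shorthand cKOA is cKO;S null/+, cKOB is cKO;S null/null and Ctrl-2 is control-2. NMNAT2 is an enzyme that makes NAD+ in axons, and SARM1 is an NAD+-consuming enzyme that drives axon degeneration. Nex-Cre recombines in postmitotic glutamatergic neurons of cortex and hippocampus, so Nmnat2 is removed in those neurons and not in the sorted astrocytes, whereas the Sarm1 null allele is present in every cell. The comparisons ask how the lysosomal transcripts of the sorted cells differ when neighbouring neurons lose NMNAT2, with and without SARM1.

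Lysosomes are acidic organelles in which proteases, glycosidases and lipases break down material delivered by endocytosis, phagocytosis and autophagy. Cathepsins are their main proteases. The vacuolar proton pump acidifies the lumen, and the transcription factor TFEB, with its relatives TFE3 and MITF, binds CACGTG-type sites (the CLEAR element) in front of many lysosomal genes. In the brain, astrocytes, neurons and microglia all have lysosomes, and microglia are known for high levels of Ctss, Cd68 and Laptm5.

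The promoters of the members are shown first. The members were picked as lysosomal genes, and the CLEAR letters are known in front of many such genes. Their share among the members is therefore a description and gives no independent support. RefSeq windows on GRCm38.p6, which run from 250 bases before to 50 bases after a transcript start, were matched to 35 of the 38 members. The 8 letters TCACGTGA, which read the same on both strands and contain the shorter CACGTG, occurred in windows of 6 of these 35 genes (17.1%), against 304 of all 27025 genes with a window (1.12%) and 225 of the 11088 genes of the count table with one (2.03%). Counted over windows, the letters stood in 0.974% of the 32851 promoters of this length. The shorter CACGTG, again on both strands, was found in 13 of the 35 members (37.1%), the 6 with TCACGTGA included. It was found in 8.09% of all genes and in 1240 of the 11088 genes of the count table (11.2%). The 6 genes with TCACGTGA were Ctsa, Ctsd, Gla, Mcoln1, Atp6v0d1 and Atp6v1a. Windows of 4 of them follow 5′ to 3′, with TCACGTGA in capitals: Ctsa and Ctsd were higher in cKOA, and Gla and Mcoln1 did not pass the test.
Ctsa (chr2:164833523-164833822, plus strand): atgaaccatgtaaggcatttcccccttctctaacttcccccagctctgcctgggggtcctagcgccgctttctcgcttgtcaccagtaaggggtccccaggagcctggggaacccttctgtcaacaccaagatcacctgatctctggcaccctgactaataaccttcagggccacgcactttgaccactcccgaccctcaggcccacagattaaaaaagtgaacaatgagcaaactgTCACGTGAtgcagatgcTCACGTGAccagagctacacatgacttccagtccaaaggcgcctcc
Ctsd (chr7:142387778-142388077, minus strand): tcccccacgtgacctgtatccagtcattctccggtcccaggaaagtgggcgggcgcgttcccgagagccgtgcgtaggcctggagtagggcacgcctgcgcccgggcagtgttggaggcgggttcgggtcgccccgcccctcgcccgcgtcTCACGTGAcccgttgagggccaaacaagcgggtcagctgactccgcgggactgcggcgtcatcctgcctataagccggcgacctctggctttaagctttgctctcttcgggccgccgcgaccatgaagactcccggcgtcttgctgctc
Gla (chrX:134600956-134601255, minus strand): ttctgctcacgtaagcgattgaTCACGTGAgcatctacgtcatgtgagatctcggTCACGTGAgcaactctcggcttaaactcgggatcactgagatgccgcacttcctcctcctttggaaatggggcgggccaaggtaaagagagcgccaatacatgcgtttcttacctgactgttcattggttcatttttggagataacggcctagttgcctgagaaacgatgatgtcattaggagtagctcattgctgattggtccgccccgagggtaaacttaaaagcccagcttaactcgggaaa
Mcoln1 (chr8:3500269-3500568, plus strand): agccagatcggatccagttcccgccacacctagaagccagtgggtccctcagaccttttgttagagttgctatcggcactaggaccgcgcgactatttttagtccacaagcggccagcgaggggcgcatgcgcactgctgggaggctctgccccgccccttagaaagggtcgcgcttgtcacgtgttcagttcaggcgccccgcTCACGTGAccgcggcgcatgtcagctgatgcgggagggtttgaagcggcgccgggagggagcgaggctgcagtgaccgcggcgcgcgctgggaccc
The Ctsa window holds 2 copies around the start, at positions -13 and 4 counted from the first transcribed base, and the Gla window holds 2 copies farther upstream, at -228 and -195. A single copy begins at -99 in Ctsd and at -46 in Mcoln1. The Ctsa window shown belongs to the more downstream of 2 annotated starts, and the window of the other (chr2:164832622-164832921) holds neither TCACGTGA nor CACGTG. Of the members that rose in cKOA, 2 of 13 with a window held TCACGTGA (15.4%), against 4 of 21 members that were not called (19.0%). These counts describe letters in the windows.

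The targeted gene was checked first. Nmnat2 had 20.9, 20.7, 20.3 and 29.4 CPM in cKOA, 42.6, 19.9, 31.2 and 26.5 CPM in cKOB and 38.7, 35.6, 37.3 and 42.4 CPM in Ctrl-2, where CPM, the usual unit of expression here, are counts scaled by library size. All 4 cKOA libraries lay below all 4 Ctrl-2 libraries (log2 fold change -0.76, SE 0.19, adjusted p = 0.0341 by edgeR's quasi-likelihood test), whereas the cKOB libraries overlapped with Ctrl-2 (adjusted p = 0.481). Since Nmnat2 is removed in neurons and not in the sorted cells, this gene is only a partial check of the labels. Sarm1 had 10.1, 9.27, 9.66 and 6.13 CPM in cKOA, 7.10, 4.82, 5.22 and 7.22 CPM in cKOB and 12.8, 8.16, 11.03 and 5.73 CPM in Ctrl-2, and counts over the whole gene do not test an allele that may still be transcribed. The astrocyte label was borne out by the astrocyte markers, whose 13 genes summed to 26769 to 33180 CPM in cKOA, 20216 to 32403 CPM in cKOB and 31560 to 34779 CPM in Ctrl-2. The glutamate transporter gene Slc1a2 alone reached 10695 to 14425.5 CPM in cKOA libraries and 15084 to 16617 CPM in Ctrl-2 libraries. Markers of other brain cells were also present in every library. In particular, 21 microglia markers, none of them among the 38 genes, summed to 4818 to 8238 CPM in cKOA, 3723 to 5232 CPM in cKOB and 2725 to 5498 CPM in Ctrl-2, with Csf1r and Cx3cr1 as the most abundant in each genotype. In bulk samples of this kind, fewer cells of a type and less RNA per cell cannot be told apart.

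Expressed per kb of exon, so that genes can be set side by side, the members spanned levels in Ctrl-2 from 462 ± 34.5 CPM per kb for Psap to 2.84 ± 0.30 CPM per kb for Gla (SD, n = 4). Psap encodes prosaposin, the precursor of the saposins that help hydrolases reach their lipid substrates. Next to it in Ctrl-2 came the aspartic protease gene Ctsd at 425 ± 80.9, Ctss at 328 ± 113, Lgmn at 307.0 ± 75.8 and Lamp1 at 258 ± 22.7 CPM per kb, and these neighbours overlapped in their spread. In cKOA the order at the top was different, with Ctsd at 894 ± 264 and Ctss at 831 ± 287 CPM per kb, above Psap at 575 ± 75.2 CPM per kb. In cKOB, the same 3 genes stood at 481 ± 63.4, 444 ± 129 and 455 ± 36.7 CPM per kb. Naglu, Glb1, Manba and Gla had the lowest levels in Ctrl-2, at 8.03 CPM per kb or less.

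**Figure D1:**
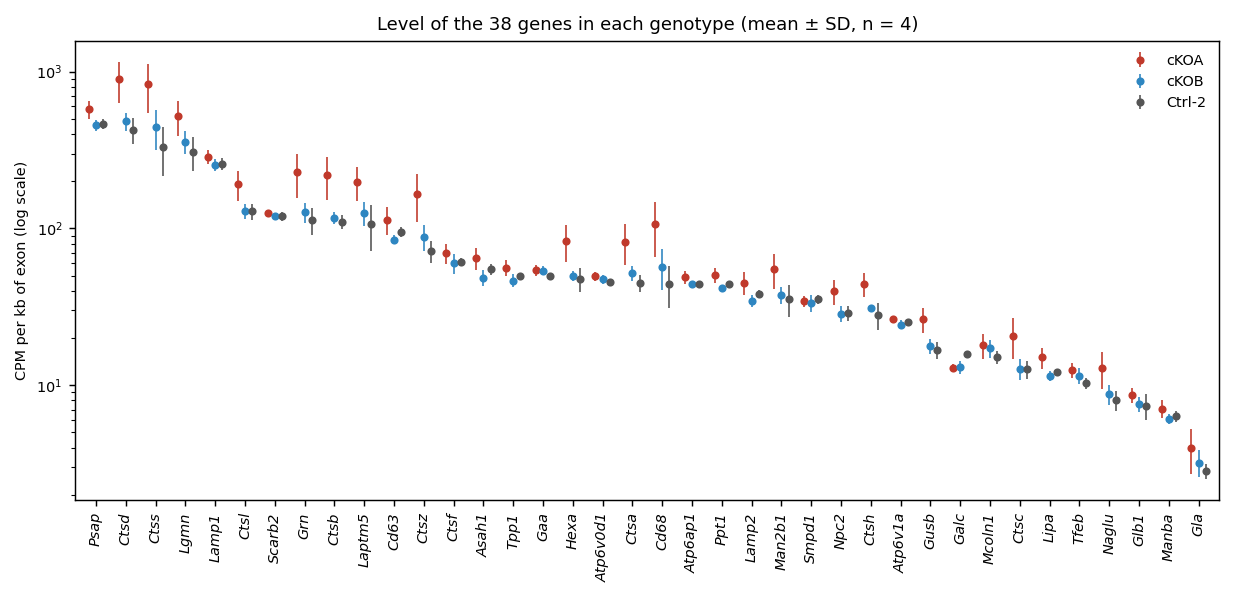
Mean level of each of the 38 genes in CPM per kb of exon (log axis) with the SD over 4 libraries, for cKOA, cKOB and Ctrl-2, ordered by the Ctrl-2 level. The order runs from Psap at 462 CPM per kb to Gla at 2.84 CPM per kb in Ctrl-2, and the widest gaps between cKOA and the other genotypes are seen in cathepsin genes, Grn, Cd68, Hexa and Laptm5.

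In cKOA against Ctrl-2, 15 of the 38 genes were higher, 1 was lower and 22 did not pass (adjusted p under 0.05, edgeR's quasi-likelihood test with Benjamini-Hochberg adjustment over all 15089 genes). Over all genes, 5.9% were higher and 1.38% were lower by the same test. The members were chosen with earlier results of these data known, so the shares set side by side here are a description. Of the members, 36 of 38 had a log2 fold change above 0, against 49.6% of all genes, and the median log2 fold change was 0.31 for the members and -0.002 for all genes. The 15 genes that rose were mostly proteases, with 6 of 7 cysteine cathepsins and 3 of 4 other proteases. The rest were 3 of 9 glycosidases, 1 of 7 genes of lipid hydrolysis and lipid handling (Grn) and 2 of 7 membrane protein genes. None of the 3 proton pump genes passed, nor did Tfeb. The groups overlapped in most of them, and all 4 cKOA libraries lay above all 4 Ctrl-2 libraries for 2 of the 38 genes, Gusb and Lipa, against 6.53% of all genes.

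These calls depended on single libraries. The mouse of library cKOA 14 differed from the other cKOA libraries: it had the lowest cKOA value for all 15 genes that rose, and the median of these genes lay 0.24 log2 units above the Ctrl-2 mean there, against 1.07, 0.81 and 1.21 in cKOA 8, 9 and 10. Without cKOA 14, 25 members were higher, against 10.6% of all genes. Without any one of Ctrl-2 4, Ctrl-2 6, Ctrl-2 7 or cKOA 8, 0 of all 15089 genes passed and so 0 members. Without cKOA 10, 37 genes and 0 members passed. Without cKOA 9, 8 members were higher, with 468 of all genes called. The 16 called members kept their direction in each of these fits. Libraries also differed in Xist, a transcript of female cells, which was found in cKOA 8, 9 and 10, cKOB 16 and 17 and Ctrl-2 7. With Xist as a covariate the median log2 fold change of the 15 genes was 0.72, against 0.88 without. The 15 were picked by their test in the same libraries. The smallest adjusted p of a member by the quasi-likelihood test was 0.0918, in a fit that called 2 of all genes. Within the 6 libraries without Xist, which hold cKOA 14 as the single cKOA library, the median of the 15 was 0.10. Within the 6 libraries with Xist, which hold Ctrl-2 7 as the single Ctrl-2 library, it was 1.34. Since cKOA 14 had the lowest cKOA value for all 15 and Ctrl-2 7 the lowest value of all libraries for 14 of them, the lone library and its genotype cannot be told apart in these medians.

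**Figure D2:**
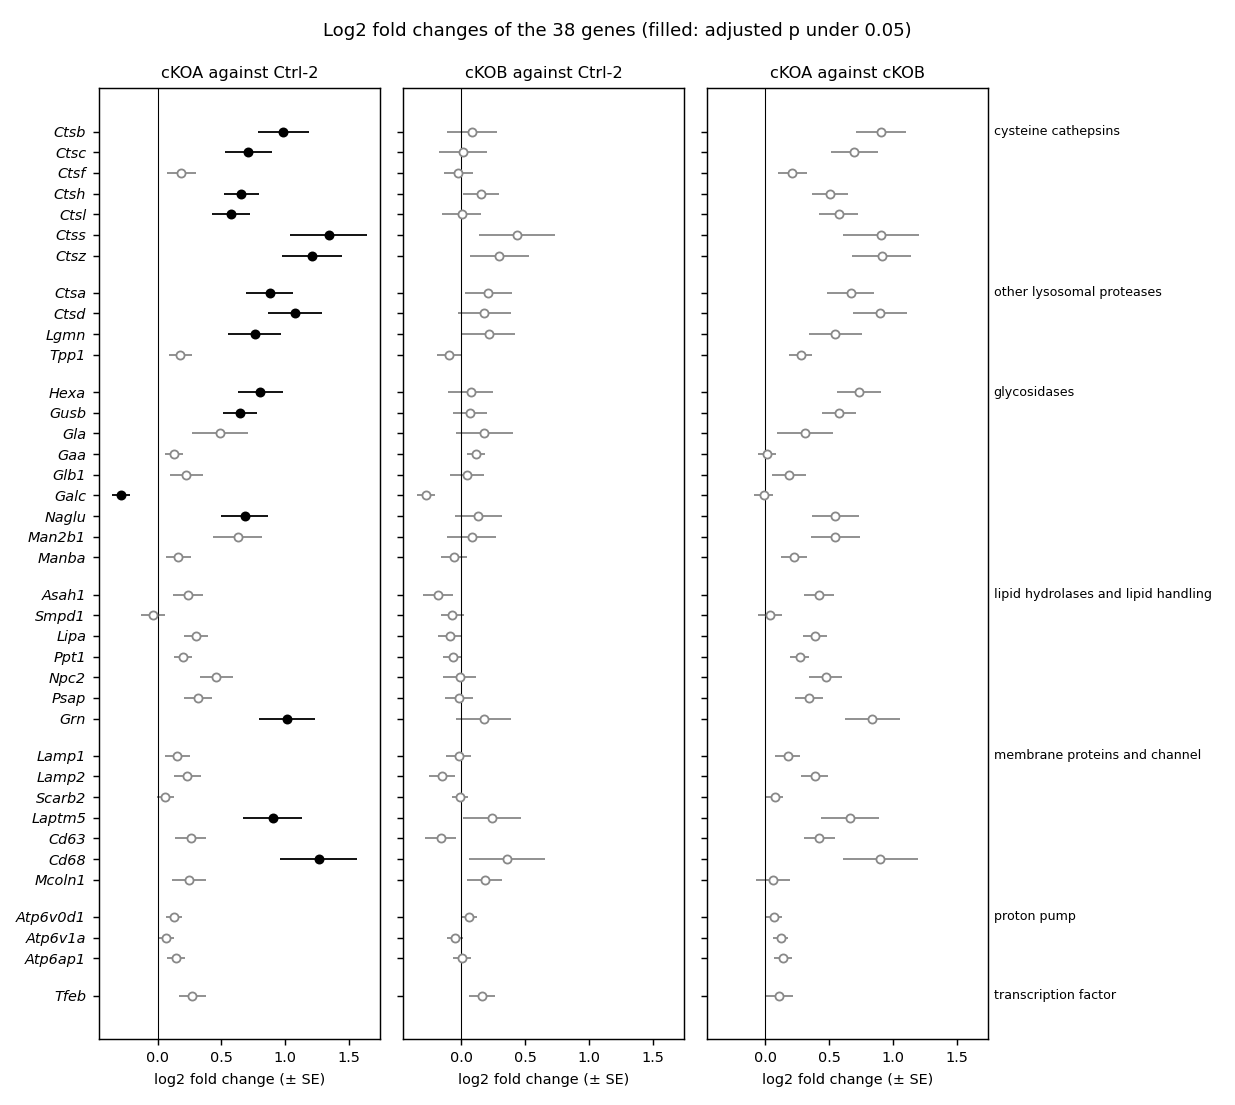
Log2 fold change of the 38 genes with its SE, grouped by role, in cKOA against Ctrl-2 (left), cKOB against Ctrl-2 (middle) and cKOA against cKOB (right). Filled points passed an adjusted p of 0.05 in edgeR's quasi-likelihood test: 15 higher and 1 lower (Galc) on the left, and 0 in the other panels.

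Among the cysteine cathepsins, Ctsb, Ctsc, Ctsh, Ctsl, Ctss and Ctsz were higher in cKOA and Ctsf was not called. Cathepsin S (chr3:95526786-95556405, GRCm38.p6) is a protease of antigen-presenting cells that trims the invariant chain of MHC class II. Its transcript Ctss had 1398, 1092, 1438 and 592 CPM in cKOA, 583, 568, 843 and 421 CPM in cKOB and 475, 653, 337 and 321 CPM in Ctrl-2, with the libraries in the order 8, 9, 10 and 14, then 15 to 18, then 4 to 7. The increase in cKOA was 2.53-fold (log2 fold change 1.34, SE 0.30, adjusted p = 0.0243), but cKOA 14 lay below Ctrl-2 5, so the groups overlapped. Ctsz, which encodes the carboxypeptidase cathepsin Z, had 286, 229, 291 and 121 CPM in cKOA, 113, 120.1, 157 and 103 CPM in cKOB and 101, 122, 91.8 and 86.1 CPM in Ctrl-2. Here too 3 cKOA libraries stood far above every Ctrl-2 library and cKOA 14 stood just below the Ctrl-2 maximum (log2 fold change 1.21, SE 0.23, adjusted p = 0.0196). Ctsb encodes cathepsin B, which acts both as an endopeptidase and as a dipeptidase, and had 1235, 1061, 1278 and 577 CPM in cKOA, 528, 537, 633 and 521 CPM in cKOB and 552, 588, 499.6 and 459 CPM in Ctrl-2. It was 1.98-fold higher in cKOA (log2 fold change 0.98, SE 0.20, adjusted p = 0.0208).

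Cathepsin L, a strong endopeptidase, was represented by Ctsl at 421, 374, 452 and 262 CPM in cKOA, 244, 235, 295 and 239.6 CPM in cKOB and 284, 259.8, 256 and 213 CPM in Ctrl-2 (log2 fold change 0.57, SE 0.15, adjusted p = 0.0383). Ctsh encodes cathepsin H, an aminopeptidase, and had 85.8, 72.00, 73.7 and 55.1 CPM in cKOA, 49.2, 50.9, 52.9 and 48.9 CPM in cKOB and 43.6, 58.8, 41.2 and 38.2 CPM in Ctrl-2 (log2 fold change 0.66, SE 0.14, adjusted p = 0.0221). For Ctsl, cKOA 14 fell below Ctrl-2 4, and for Ctsh below Ctrl-2 5, while the other 3 cKOA libraries exceeded every Ctrl-2 library for both. Ctsc, the gene of dipeptidyl peptidase 1, which activates granule proteases of immune cells, was the least abundant of the 7 per kb and had 58.4, 47.3, 66.6 and 32.3 CPM in cKOA, 30.4, 29.7, 38.5 and 27.7 CPM in cKOB and 30.9, 37.1, 28.6 and 28.4 CPM in Ctrl-2 (log2 fold change 0.71, SE 0.19, adjusted p = 0.0385). Ctsf, the gene of cathepsin F, averaged 137 ± 19.3 CPM in cKOA, 118 ± 17.3 CPM in cKOB and 120.2 ± 7.07 CPM in Ctrl-2 (SD, n = 4), with the smallest difference of the class (log2 fold change 0.19, SE 0.12, adjusted p = 0.349). The 7 genes together summed to 1752 to 3755 CPM in cKOA libraries, 1479 to 2155 CPM in cKOB libraries and 1256 to 1842 CPM in Ctrl-2 libraries.

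**Figure D3:**
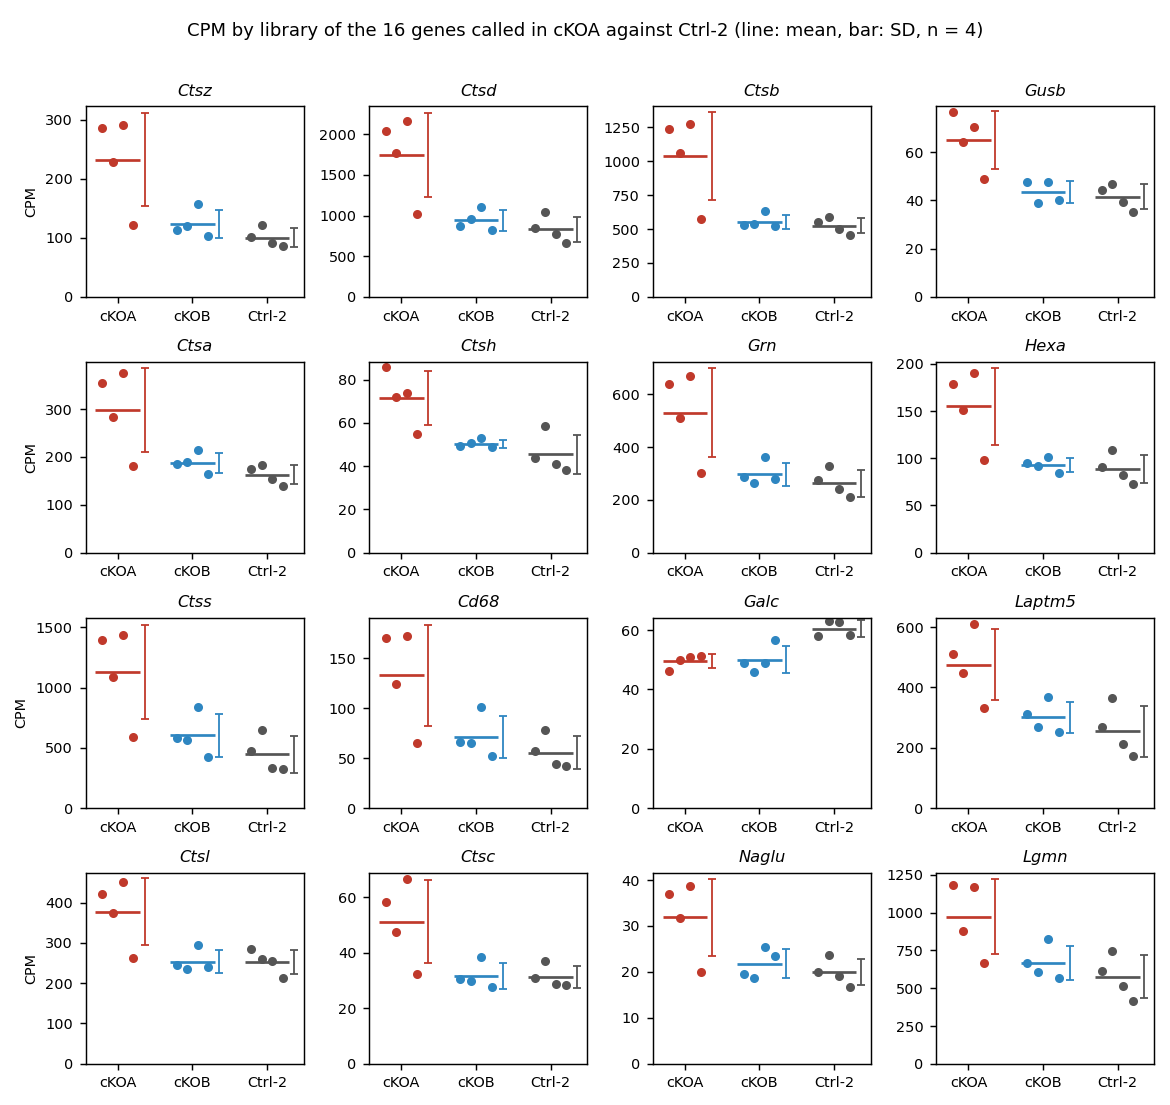
CPM in each library of the 16 genes that passed the test in cKOA against Ctrl-2, with 4 points per genotype, the mean as a line and the SD as a bar. In every raised gene 1 cKOA library, cKOA 14, sits near the Ctrl-2 values (Ctsd at 1013 CPM against 1770.1 to 2158 CPM in the other 3), and Galc is the gene with lower values in both mutants.

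Of the other proteases, Ctsa, Ctsd and Lgmn were higher in cKOA. Ctsd (chr7:142375910-142387827) encodes cathepsin D, the main aspartic protease of lysosomes, and had 2044, 1770.1, 2158 and 1013 CPM in cKOA, 871, 963, 1102 and 820.1 CPM in cKOB and 847, 1038, 772 and 662 CPM in Ctrl-2. The mean was 2.10-fold higher in cKOA (log2 fold change 1.07, SE 0.21, adjusted p = 0.0201), with cKOA 14 just below Ctrl-2 5. Ctsa encodes a serine carboxypeptidase that also protects beta-galactosidase and neuraminidase from degradation, and had 355, 283, 375 and 181 CPM in cKOA, 185, 189, 214 and 163 CPM in cKOB and 175, 182, 153 and 140.1 CPM in Ctrl-2 (log2 fold change 0.88, SE 0.18, adjusted p = 0.0221). The CLEAR letters of Ctsa stand only at the more downstream of its 2 annotated starts, as given above, and those of Ctsd at its single start. Lgmn encodes legumain, an asparaginyl endopeptidase that processes other cathepsins, at 1181, 881, 1168 and 667 CPM in cKOA, 668, 607, 825 and 569.6 CPM in cKOB and 617, 749.5, 518 and 417 CPM in Ctrl-2 (log2 fold change 0.76, SE 0.21, adjusted p = 0.0445). Its cKOA 14 and Ctrl-2 5 values crossed as well. Tpp1, whose product tripeptidyl peptidase 1 is lost in a childhood form of neuronal ceroid lipofuscinosis, averaged 196 ± 23.6 CPM in cKOA, 162 ± 15.6 CPM in cKOB and 174 ± 7.63 CPM in Ctrl-2 (SD, n = 4) and was not called (log2 fold change 0.18, SE 0.091, adjusted p = 0.259).

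The glycosidases, which remove sugars from glycolipids, glycoproteins and glycosaminoglycans, were called in both directions. Hexa, Gusb and Naglu were higher in cKOA, Galc was lower, and Gla, Gaa, Glb1, Man2b1 and Manba were not called by the quasi-likelihood test. Hexa encodes the alpha subunit of beta-hexosaminidase, which degrades GM2 ganglioside, and had 179, 152, 190.4 and 98.4 CPM in cKOA, 94.96, 91.9, 102 and 84.2 CPM in cKOB and 90.5, 109, 82.5 and 73.01 CPM in Ctrl-2 (log2 fold change 0.80, SE 0.17, adjusted p = 0.0229). Gusb, the gene of beta-glucuronidase, had 76.4, 64.1, 70.4 and 48.8 CPM in cKOA, 47.6, 38.9, 47.4 and 40.1 CPM in cKOB and 44.5, 46.8, 39.5 and 35.3 CPM in Ctrl-2. It was the only called gene whose cKOA libraries all exceeded both the Ctrl-2 and the cKOB libraries, with cKOA 14 ahead of Ctrl-2 5 by a small margin (log2 fold change 0.65, SE 0.13, adjusted p = 0.0214). Naglu, whose enzyme degrades heparan sulfate, had 37.02, 31.6, 38.8 and 20.04 CPM in cKOA, 19.5, 18.7, 25.5 and 23.5 CPM in cKOB and 20.04, 23.6, 19.2 and 16.8 CPM in Ctrl-2 (log2 fold change 0.68, SE 0.18, adjusted p = 0.0433), so that cKOA 14 lay inside the Ctrl-2 range.

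Galc (chr12:98202287-98259459) encodes galactosylceramidase, which breaks down the myelin lipid galactosylceramide and is lost in Krabbe disease. It had 46.1, 49.96, 50.8 and 51.3 CPM in cKOA, 48.97, 45.7, 48.9 and 56.5 CPM in cKOB and 57.9, 63.01, 62.8 and 58.2 CPM in Ctrl-2. All 4 cKOA libraries lay below all 4 Ctrl-2 libraries, cKOA 14 included, and the difference was small (log2 fold change -0.29, SE 0.071, adjusted p = 0.0315). The cKOB libraries also lay below the Ctrl-2 libraries without overlap, with a log2 fold change of -0.27 (unadjusted p = 0.00204, adjusted p = 0.338 by the same test), and cKOA and cKOB differed by -0.01 (adjusted p = 0.954). Over all genes, 4.8% in cKOA and 3.4% in cKOB lay below Ctrl-2 without overlap, and Galc was the 1 of 38 members that did so. Both comparisons use the same 4 Ctrl-2 libraries. This call too was lost when any 1 of the Ctrl-2 libraries or of cKOA 8, 9 and 10 was left out. Oligodendrocytes are a known source of Galc. The mean log2 CPM of 10 oligodendrocyte markers was 7.21, 7.04, 7.24 and 8.08 in cKOA, 8.18, 8.36, 8.36 and 8.11 in cKOB and 8.82, 7.12, 8.24 and 7.81 in Ctrl-2. Ctrl-2 5, with the lowest Ctrl-2 marker level, had 63.01 CPM of Galc, and cKOA 9, with the lowest marker level of all libraries, had 49.96 CPM. With the marker mean as a covariate Galc had a log2 fold change of -0.31 (adjusted p = 0.171 by the same test). That fit called 0 of all genes and so cannot decide the part of oligodendrocytes in the Galc difference, which was not tested.

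The most abundant glycosidase per kb in Ctrl-2 and cKOB, Gaa, encodes acid alpha-glucosidase, which degrades glycogen. It had 206, 198, 228 and 191 CPM in cKOA, 189, 209, 221 and 198 CPM in cKOB and 182, 186, 200.2 and 186 CPM in Ctrl-2, and the groups overlapped (log2 fold change 0.13, SE 0.072, adjusted p = 0.309). Man2b1, the gene of lysosomal alpha-mannosidase, averaged 237 ± 59.1 CPM in cKOA, 162 ± 19.7 CPM in cKOB and 153 ± 35.9 CPM in Ctrl-2 (SD, n = 4) and missed the threshold (log2 fold change 0.63, SE 0.19, adjusted p = 0.065), although DESeq2 and edgeR's likelihood ratio test called it higher. Gla encodes alpha-galactosidase A and averaged 12.1 ± 3.86 CPM in cKOA, 9.75 ± 1.92 CPM in cKOB and 8.60 ± 0.908 CPM in Ctrl-2, with a log2 fold change of 0.49 and an adjusted p of 0.199. Glb1 (beta-galactosidase) and Manba (beta-mannosidase) had log2 fold changes of 0.23 and 0.16, neither past the test.

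Of the genes of lipid hydrolysis and lipid handling, 1 of 7 was higher in cKOA. Grn, the gene of progranulin, a secreted protein that is taken up into lysosomes and cut into granulins, was the gene that passed. It had 640.3, 512, 669.7 and 301 CPM in cKOA, 286, 264, 361 and 278 CPM in cKOB and 274, 329, 240.1 and 209.9 CPM in Ctrl-2 and was 2.02-fold higher in cKOA (log2 fold change 1.01, SE 0.22, adjusted p = 0.0227). Psap, the most abundant member per kb in Ctrl-2, had 1632, 1576, 1784 and 1292 CPM in cKOA, 1095, 1269, 1315 and 1291 CPM in cKOB and 1315, 1282, 1326 and 1123 CPM in Ctrl-2. Its values in cKOA 8, 9 and 10 exceeded every Ctrl-2 value and cKOA 14 did not (log2 fold change 0.32, SE 0.11, adjusted p = 0.0978). Npc2, the gene of a cholesterol carrier of the lysosomal lumen, lay directly outside the threshold at 129.5 ± 23.2 CPM in cKOA, 93.4 ± 11.1 CPM in cKOB and 94.2 ± 10.9 CPM in Ctrl-2 (SD, n = 4), with a log2 fold change of 0.46 and an adjusted p of 0.0501. Lipa, the gene of lysosomal acid lipase, averaged 44.7 ± 6.72 CPM in cKOA, 34.1 ± 2.47 CPM in cKOB and 36.3 ± 1.53 CPM in Ctrl-2. It did not pass (log2 fold change 0.30, SE 0.096, adjusted p = 0.0762), although its cKOA libraries did not overlap with those of Ctrl-2. DESeq2 called Psap, Npc2 and Lipa higher, and Npc2 also passed in the likelihood ratio test, with RLE scaling and with a filter at 10 CPM. Log2 fold changes were 0.24 for Asah1 (acid ceramidase), 0.20 for Ppt1 (palmitoyl-protein thioesterase) and -0.03 for Smpd1 (acid sphingomyelinase), with adjusted p of 0.24, 0.116 and 0.857.

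Of the membrane proteins and the channel, Laptm5 and Cd68 were higher in cKOA. Cd68, a lysosomal glycoprotein used as a marker of phagocytic cells, had 170.4, 124, 172 and 64.8 CPM in cKOA, 65.98, 65.6, 101 and 52.2 CPM in cKOB and 57.2, 78.2, 44.6 and 41.9 CPM in Ctrl-2. The increase was 2.40-fold (log2 fold change 1.26, SE 0.30, adjusted p = 0.0276), and the SD in cKOA (50.7 CPM) was close to the Ctrl-2 mean of 55.5 CPM. Laptm5, a transmembrane protein gene of blood-derived and microglial cells, had 512, 449, 609.6 and 331 CPM in cKOA, 314, 269, 369 and 253 CPM in cKOB and 268, 366, 214 and 171 CPM in Ctrl-2 (log2 fold change 0.90, SE 0.23, adjusted p = 0.0342). The widely expressed Lamp1, a main glycoprotein of the lysosomal membrane, had 624, 643, 736 and 585 CPM in cKOA, 510.4, 562, 594 and 626 CPM in cKOB and 632, 573, 607 and 514 CPM in Ctrl-2, with overlapping groups (log2 fold change 0.15, SE 0.098, adjusted p = 0.362). Lamp2 (a receptor for autophagy), Scarb2 (the carrier of beta-glucocerebrosidase), Cd63 (a tetraspanin) and Mcoln1 (a calcium channel) had log2 fold changes of 0.23, 0.06, 0.26 and 0.24, none past the test.

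Among the 3 proton pump genes 0 passed by the quasi-likelihood test, 0 by its likelihood ratio test, DESeq2 or limma-voom, and 0 had an unadjusted p under 0.05. Atp6v0d1, a subunit of the membrane sector, had 86.3, 77.7, 81.98 and 74.1 CPM in cKOA, 74.4, 83.1, 76.9 and 71.6 CPM in cKOB and 74.95, 73.7, 70.7 and 73.9 CPM in Ctrl-2 (log2 fold change 0.13, SE 0.064, adjusted p = 0.25). Atp6v1a, the catalytic subunit, and Atp6ap1, an accessory subunit, had log2 fold changes of 0.07 and 0.14, and all 3 genes together summed to 274 to 310.2 CPM in cKOA, 262 to 276 CPM in cKOB and 262 to 279.8 CPM in Ctrl-2. Tfeb had 36.4, 34.2, 39.5 and 30.6 CPM in cKOA, 30.7, 36.6, 35.05 and 28.1 CPM in cKOB and 30.3, 29.4, 31.1 and 25.7 CPM in Ctrl-2. Its cKOA libraries were on average 1.21-fold above Ctrl-2 but overlapped with them and did not pass (log2 fold change 0.27, SE 0.1, adjusted p = 0.129).

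The levels of the raised members were high or low in many of the same libraries as those of microglia markers, but not in equal measure. Mean log2 CPM of the 21 microglia markers was 7.82, 7.5, 7.95 and 7.11 in cKOA 8, 9, 10 and 14, then 7, 6.86, 7.24 and 6.69 in cKOB and 6.78, 7.29, 6.48 and 6.30 in Ctrl-2. The highest libraries for the markers, cKOA 10 and cKOA 8, were those with the highest value for 12 and 3 of the 15 raised members. Ctrl-2 5 had the highest Ctrl-2 value for 14 of the 15, and Ctrl-2 7 the lowest value of all libraries for 14. In log2 units above the Ctrl-2 mean, the markers stood at 0.58 in Ctrl-2 5 and 0.79 in cKOA 9. The median of the 15 members stood at 0.31 in Ctrl-2 5 and 0.81 in cKOA 9. Of the 21 markers, 14 were higher in cKOA against Ctrl-2 by the same test and all 21 had a log2 fold change above 0, with a median of 0.87, next to a median of 0.88 for the 15 raised members. With the marker mean as a covariate, 0 of all 15089 genes passed, the 38 included, and the median log2 fold change of the 15 was 0.14, with a range from -0.05 to 0.32. When cKOA 14 was also left out, the median was 0.36, with 0 of the 15 past the adjusted threshold, which 3 of all genes passed. With oligodendrocyte markers as the covariate the median was 0.70. Of 13 astrocyte markers 0 were called by the quasi-likelihood test, with a median of -0.02 and 1 higher and 0 lower at an unadjusted p under 0.05. Of 10 immediate early genes that respond to dissociation, 9 were also higher in cKOA, and their summed level was 3866 to 7112 CPM in cKOA, 2923 to 5248 CPM in cKOB and 1833 to 3410.2 CPM in Ctrl-2. The part of the marker cells, of dissociation or of sex in the differences of the members was not tested. The microglia markers themselves differed between cKOA and Ctrl-2, so the fit with them cannot tell marker cells from genotype. No fit held the dissociation genes as a covariate.

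**Figure D4:**
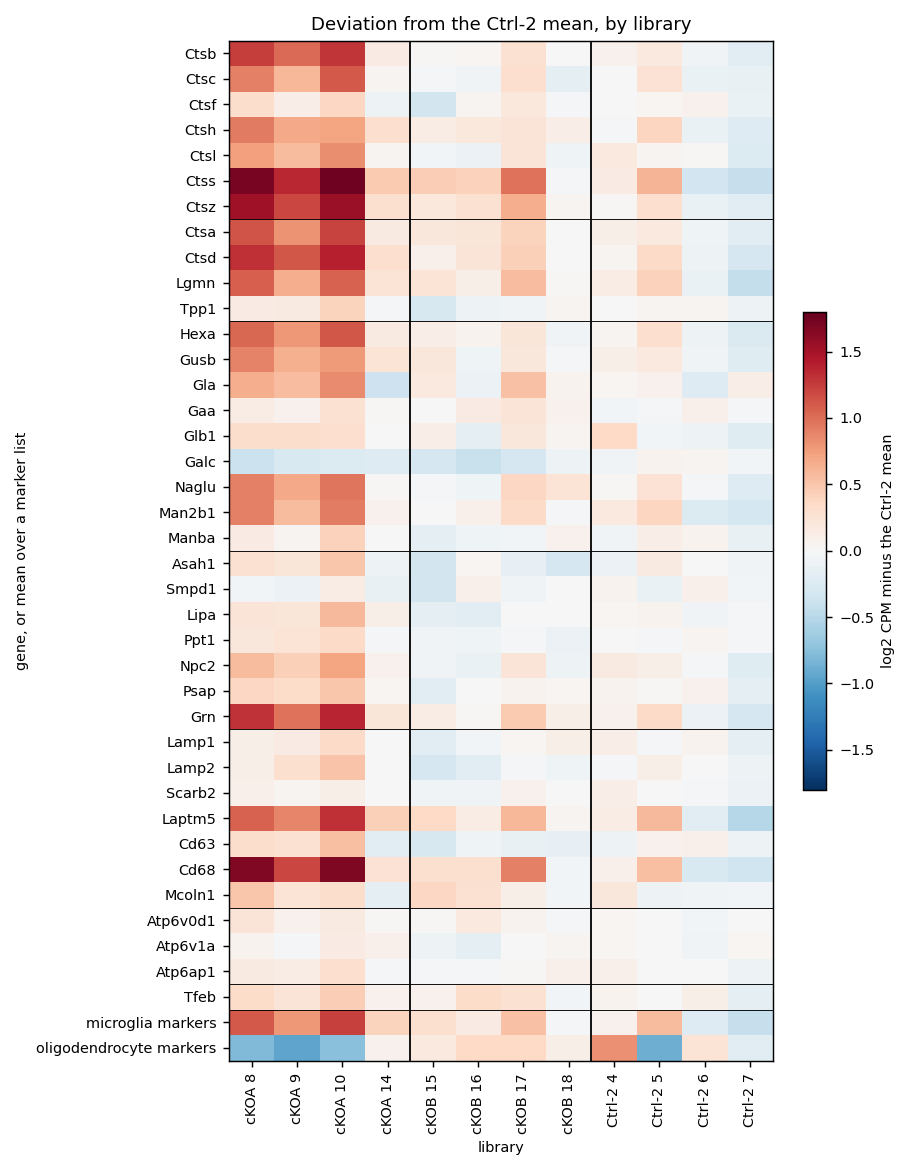
Log2 CPM of each of the 38 genes in each library minus the mean of the 4 Ctrl-2 libraries, in order of role, with the mean over the microglia and the oligodendrocyte markers in the bottom rows. The columns cKOA 8, 9 and 10 are red for the cathepsins, Grn, Hexa, Cd68 and the microglia markers (median deviation of the 15 raised genes 1.07, 0.81 and 1.21), and cKOA 14 is paler (0.24).

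**Figure D5:**
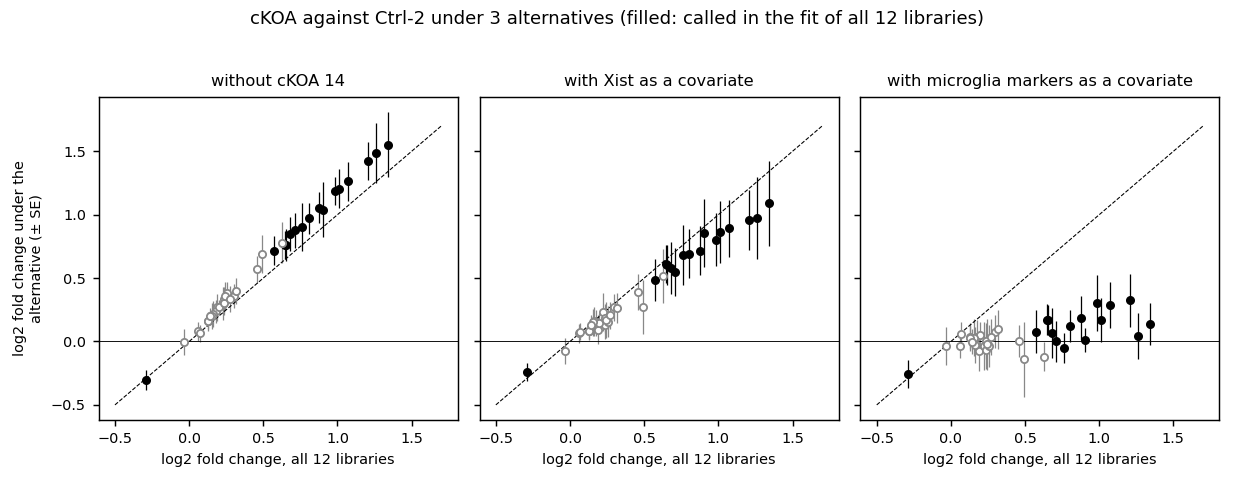
Log2 fold change of the 38 genes in cKOA against Ctrl-2 from all 12 libraries (x axis) and under 3 alternatives with its SE (y axis): without cKOA 14, with Xist as a covariate, and with the microglia marker mean as a covariate. Filled points are the 16 called genes, the dashed line marks equal values, and the median of the 15 raised genes is 1.04, 0.72 and 0.14 from left to right.

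Further lysosomal genes outside the 38 were read from the same fit. Of 73 measured, 16 were higher in cKOA against Ctrl-2, 0 were lower and 57 did not pass, against 5.9% higher and 1.38% lower of all genes, with a median log2 fold change of 0.10. At an unadjusted p under 0.05, 28 were higher and 6 lower, against 14.3% and 9.25% of all genes. DESeq2 called 22 higher and 3 lower, against 1306 and 559 of all genes. The likelihood ratio test of edgeR called 21 and 1, against 1219 and 380, and limma-voom 13 and 0, against 786 and 240. Without cKOA 14 there were 25 higher and 4 lower, against 1604 and 974 of all genes. Without Ctrl-2 4, 6 or 7 or cKOA 8, 0 were higher, as 0 of all genes passed. Of 24 further hydrolases, 9 rose, among them Pla2g15, the lysosomal phospholipase A2 (log2 fold change 0.92, SE 0.20, adjusted p = 0.0221), Galns, which acts on keratan sulfate (0.90, adjusted p = 0.0221), and the sialidase gene Neu1 (0.32, adjusted p = 0.0218). In these 3 the groups did not overlap.

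Both measured relatives of Tfeb were higher. Mitf, a factor best known from melanocytes and osteoclasts, had 36.3, 30.5, 36.2 and 23.2 CPM in cKOA, 23.2, 27.5, 22.8 and 20.6 CPM in cKOB and 22.3, 19.3, 20.9 and 19.9 CPM in Ctrl-2 (log2 fold change 0.62, SE 0.13, adjusted p = 0.0228), and its cKOA and Ctrl-2 libraries did not overlap. Tfe3 averaged 59.1 ± 10.1 CPM in cKOA, 47.9 ± 4.63 CPM in cKOB and 41.9 ± 4.29 CPM in Ctrl-2 (SD, n = 4) (log2 fold change 0.50, SE 0.12, adjusted p = 0.0292). Of 4 cathepsin inhibitors 1 rose: Cst7, which encodes cystatin F, an inhibitor that acts inside the endolysosomes of immune cells. It had 9.38, 13.7, 11.5 and 1.77 CPM in cKOA, 0.841, 1.55, 1.60 and 1.41 CPM in cKOB and 1.0, 1.19, 0.728 and 0.485 CPM in Ctrl-2. This was the largest difference of the lysosomal genes examined (log2 fold change 3.40, SE 0.52, adjusted p = 0.0138), with cKOA 14 near the cKOB values and yet above every Ctrl-2 library. The counts in the smaller lists that follow stand beside 5.9% of all genes. Of 20 further membrane proteins 2 rose, the phospholipase D family gene Pld3 (0.58, adjusted p = 0.0229) and Cln3 (0.47, adjusted p = 0.0405). Of 14 further proton pump subunits 1 rose, Atp6v1f (0.40, adjusted p = 0.0269), and of 6 genes of mannose 6-phosphate sorting 1 rose, Nagpa, whose enzyme uncovers the sorting tag (0.68, adjusted p = 0.0231). Of 3 further cathepsins, 0 were called by edgeR's quasi-likelihood test, its likelihood ratio test or limma-voom, and at an unadjusted p under 0.05, 0 were higher and 2 lower. Ctsk, a cathepsin best known from osteoclasts, was called lower by DESeq2 and by the quasi-likelihood test without cKOA 14.

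In cKOB against Ctrl-2, edgeR's quasi-likelihood test called 0 of all 15089 genes (0.0%), and thus 0 of the 38. The members called were also 0 by limma-voom, which called 0 of all genes, by the likelihood ratio test, which called 33 genes higher and 15 lower, and by DESeq2, which called 31 and 27. At an unadjusted p under 0.05, 0 members were higher, against 6.79% of all genes, and 1 was lower, Galc, against 4.87%. No member had all cKOB libraries above all Ctrl-2 libraries, against 2.62% of all genes. The median log2 fold change was 0.05, with a range from -0.27 to 0.44. Ctss stood at the top of this range (log2 fold change 0.44, SE 0.30, adjusted p = 0.573), followed by Cd68 at 0.36 and Ctsz at 0.30. The library cKOB 17 held the highest cKOB value of these 3 genes. Among the 73 further lysosomal genes 0 were called, with 3 higher and 5 lower at an unadjusted p under 0.05, and DESeq2 called 1 lower.

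The direct comparison of the mutants, cKOA against cKOB, asks what the loss of the remaining Sarm1 allele adds. It shares its cKOA libraries with the comparison against Ctrl-2. By edgeR's quasi-likelihood test 0 of all 15089 genes passed (0.0%), and thus 0 of the 38, with 0.153 as the smallest adjusted p of a member, and limma-voom also called 0 of all genes. DESeq2 called 19 members higher, against 2.62% of all genes, and the likelihood ratio test 15, against 2.01%. At an unadjusted p under 0.05, 25 were higher, against 9.17% of all genes, and 0 were lower. The median log2 fold change of the members was 0.40. Log2 fold changes were 0.91 for Ctsz, 0.90 for Ctss, 0.90 for Ctsb, 0.90 for Cd68, 0.89 for Ctsd, 0.84 for Grn and 0.73 for Hexa. All 4 cKOA libraries exceeded all 4 cKOB libraries for 4 members, against 2.66% of all genes: Gusb (0.58), Ctsh (0.51), Lipa (0.39) and Lamp2 (0.39). Without cKOA 14, 25 members were higher and 0 lower by the quasi-likelihood test, and among the 73 further genes 25 were higher and 1 lower, while 5.73% of all genes were higher and 5.38% lower. Microglia markers stood in the same order, with all 21 above 0 in cKOA against cKOB (median 0.69, 17 at an unadjusted p under 0.05).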

How the data were processed

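RNA-seq of 12 libraries of sorted cortical astrocytes was grouped by the genotype in the sample labels, 4 libraries each of cKOA, cKOB and Ctrl-2. The deposited table holds raw read counts per gene as the authors counted them, not normalized, for 15089 genes. It also holds log2 CPM by the authors, and the authors' log2 fold changes, signed fold changes, p-values and false discovery rates of each comparison, none of which was used. The build in the submitters' processing notes is mm10, and the tools listed there, with no role given, are edgeR 4.2.1, Subread 2.0.3 with featureCounts, STAR 2.7.10a and FastQC 0.11.5. For the strand setting and the annotation nothing is given in the sources used here, so reads of overlapping genes may be shared. Labels give Ctrl-2 1 null allele of Sarm1, while the methods of the study allow controls with or without it.

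In R 4.3.3, counts were fitted with edgeR 4.0.16 (limma 3.58.1 for voom): filterByExpr at its defaults of 10 counts in a library and 15 in total, which took out 0 genes, TMM scaling, and a quasi-likelihood model (glmQLFit, glmQLFTest) of all 12 libraries with 9 residual degrees of freedom. Tests were two-sided with Benjamini-Hochberg adjustment over 15089 genes and a threshold of 0.05. CPM use TMM-scaled library sizes of 16506627 to 22159404 counts before scaling. The p-values set the difference between genotypes against the spread between mice. Log2 CPM used a prior count of 2. Gene positions and promoters came from RefSeq on GRCm38.p6, matched by Entrez identifier. The members, the lists and the alternatives were chosen with earlier results of these data known. Every member is named, with values in all libraries for those called and for the most abundant member of each role per kb. From each other list, up to 4 called genes with the smallest adjusted p are named, and from cell type lists up to 3 of the most abundant. Alternatives were RLE and upper-quartile scaling, DESeq2 1.42.0, edgeR's likelihood ratio test, limma-voom, other filters, the pair of genotypes alone, each library left out, and covariates for Xist, microglia and oligodendrocyte markers. The fits within the libraries with or without Xist (split at 50 CPM) and the microglia covariate without cKOA 14 were added after seeing the data. Some genes are not reported here. Python 3.11.15 and matplotlib 3.10.9 made the figures.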

Additional observations from a re-analysis of the deposited data

Results flagged for a closer look

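In each genotype, the highest or lowest of the 4 libraries was compared with the other 3 for each of the 38 genes. A library stood apart where its gap to the nearest other, as a share of the range, exceeded Dixon's 95% critical value, which chance gives in about 1 of 20 groups. This held in 5 of 114 groups. In library cKOB 17, Ctsb stood at 632.7 CPM against 521 to 537 CPM in the other cKOB libraries, Ctsl at 295.2 CPM against 235 to 244 CPM and Npc2 at 109.8 CPM against 86.1 to 89.7 CPM. In cKOA 14, Glb1 stood at 18.11 CPM against 22.5 to 22.7 CPM in the other cKOA libraries. In Ctrl-2 4, Mcoln1 stood at 34.83 CPM against 28.5 to 29.2 CPM in the other Ctrl-2 libraries. cKOB 17 also had the highest microglia marker mean of the cKOB libraries, at 7.24 log2 CPM against 6.69 to 7.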

How the results depend on the processing

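In cKOA against Ctrl-2, the counts of members called were within 1.5 times of 15 higher under RLE and upper-quartile scaling, DESeq2 (19), the likelihood ratio test (17), limma-voom (13), both other filters and the pair of genotypes alone (10), and Galc stayed the 1 lower gene in these. With Xist, microglia markers or oligodendrocyte markers as a covariate, or with microglia markers when cKOA 14 was left out, 0 members were higher and 0 lower. The 2 fits by Xist leave 1 library in a group, so only effect sizes are given. The median log2 fold change of the 15 raised genes was 0.10 in the 6 libraries without Xist. It was 1.34 in the 6 with Xist, whose lone Ctrl-2 library was the lowest of all for 14 of the 15. Over all 15089 genes the Xist covariate fit called 2, the microglia fit 0, or 3 without cKOA 14, and the oligodendrocyte fit 0. Leaving out 1 library gave 0 to 25 members higher and 0 to 1 lower. Of the 73 other genes, 16 were higher with all libraries, 6 with the pair of genotypes alone, 0 with any of these covariates, and 0 to 25 with 1 library left out. Lower were 1 with upper-quartile scaling, 3 with DESeq2, 1 with the likelihood ratio test, and 0 to 4 with 1 library left out, against 0. Over all genes in this comparison, DESeq2 called 1306 higher and 559 lower and the likelihood ratio test 1219 and 380. The quasi-likelihood fit without cKOA 14 called 1604 and 974. In cKOA against cKOB, where 0 were called, DESeq2 called 19 members and 8 other genes higher, and the likelihood ratio test 15 and 6. The libraries with Xist gave 15 and 6 (with 1 other gene lower), against 325 higher and 393 lower of all genes. One library left out gave 0 to 25 members and 0 to 25 other genes higher, and 0 to 1 other genes lower. DESeq2 called 1 other gene lower in cKOB against Ctrl-2.

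Signs changed in 34 of 988 log2 fold changes of members in cKOA against Ctrl-2, in 78 of 988 in cKOB against Ctrl-2 and in 38 of 988 in cKOA against cKOB, and those of genes printed with a value are as follows. With microglia markers as a covariate, log2 fold changes in cKOA against Ctrl-2 were Ctsf -0.076, Lgmn -0.054, Gla -0.14, Glb1 -0.035, Man2b1 -0.12, Manba -0.027, Asah1 -0.065, Scarb2 -0.036, Cd63 -0.036, Mcoln1 -0.022 and Atp6ap1 -0.0008, and in cKOA against cKOB Cd68 -0.0054 and Galc 0.011. Without cKOA 14 the same covariate gave Smpd1 0.074 and Scarb2 -0.037, and oligodendrocyte markers gave Smpd1 0.0092. In the libraries without Xist the values were Ctsf -0.14, Ctsl -0.032, Tpp1 -0.05, Gla -0.35, Glb1 -0.099, Naglu -0.067, Man2b1 -0.051, Manba -0.044, Asah1 -0.12, Ppt1 -0.051, Npc2 -0.003, Psap -0.021, Lamp1 -0.051, Lamp2 -0.045, Scarb2 -0.028, Cd63 -0.22, Mcoln1 -0.19 and Atp6ap1 -0.072, and Cd68 -0.024 in cKOB against Ctrl-2. In those with Xist they were Smpd1 0.011 and Atp6v1a -0.0021. Galc in cKOA against cKOB was 0.035 in the libraries with Xist, 0.009 with Xist as a covariate, 0.0094 without cKOA 8 and 0.0499 without cKOB 18. The 2 fits by Xist have fewer samples, and otherwise the cause was not tested. With 4 mice per genotype and 1 of 4 Ctrl-2 against 3 of 4 cKOA libraries with Xist, sex and genotype are partly confounded. No paired analysis was possible because library numbers are not shared between genotypes.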

Other observations

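Markers of macrophages at the borders of the brain went the other way from the microglia markers. Of 7 such genes, 0 were higher and 1 was lower in cKOA against Ctrl-2 by edgeR's quasi-likelihood test, 6 had an unadjusted p under 0.05, all lower, and the median log2 fold change was -1.12. Over all genes, 1.38% were lower by that test and 9.25% at an unadjusted p under 0.05. Their summed level was 43.3 to 96.0 CPM in cKOA, 86.0 to 148 CPM in cKOB and 71.8 to 197 CPM in Ctrl-2, with Mrc1, F13a1 and Cd163 as the most abundant. The further cathepsin gene Ctsk, best known from osteoclasts, had 3.03 ± 1.13 CPM in cKOA, 3.82 ± 0.594 CPM in cKOB and 4.79 ± 0.724 CPM in Ctrl-2 (SD, n = 4) and did not pass by the quasi-likelihood test.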
